A study of Mus musculus with 46 samples.

Results

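The genes described here are 10 receptors and receptor subunits of myeloid cells, taken as a named list from the 46264 gene symbols of the table. They are the Trem receptor genes Trem1 and Trem3, the adaptor gene Tyrobp, and the C-type lectin genes Clec7a, Clec4d, Clec4e, Clec4n, Clec5a, Clec12a and Clec4a2. Trem receptors and C-type lectins sit on the surface of neutrophils, monocytes, macrophages and dendritic cells. Most activating members have no signalling motif of their own and borrow a tyrosine-based activation motif from an adaptor, DAP12 (the product of Tyrobp) or the Fc receptor gamma chain (the product of Fcer1g), which recruits the kinase Syk. Inhibitory members carry a tyrosine-based inhibition motif and recruit the phosphatases encoded by Ptpn6, Ptpn11 and Inpp5d.

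The series comprises 46 bulk mRNA libraries of mice, sequenced in a study of intravenous immunoglobulin (IVIG), which is pooled antibody given into a vein, in a mouse model of mucous membrane pemphigoid with antibodies to laminin 332. Whole blood, bone marrow derived neutrophils, bone marrow derived monocytes and skin came from animals given IVIG or phosphate-buffered saline (PBS), with 5 and 5 libraries for blood, 5 and 5 for neutrophils, 3 and 5 for monocytes, and 3 and 3 for skin. A separate experiment, labelled Ics, has 4 libraries titled unstimulated (0 h), 4 at 3 h and 4 at 6 h. What Ics stands for, which cells were used and what stimulated them are not in the labels, and no unstimulated library was collected at 3 h or 6 h, so time in culture and stimulus cannot be told apart. Strain, age and genotype are not in the labels, and the labels do not say that each animal given IVIG or PBS also received the antibody of the disease model. Whether the libraries of a group stem from different animals or cultures is not stated either, and the p-values rest on the spread among the libraries alone. The Ics titles carry m1 to m4 at each time without saying what the number marks. The main tests treat the Ics libraries as unpaired.

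Library totals were 24827628 to 29502785 estimated counts in the Ics experiment and 18965431 to 43176537 over all 46 libraries. Levels are given as CPM, counts scaled to library size, after TMM scaling (normalised CPM), with the 12 Ics libraries and the other 34 libraries scaled apart, so levels are not compared between these sets. The values keep the effect of transcript length, so levels are not compared between genes. Before any tissue comparison, each of the 34 libraries was checked against marker genes that are not among the 10 receptors. The markers matched the tissue label in 25 libraries and went against it in 9. Of these 9, 2 libraries labelled neutrophil and 2 labelled skin had over 10% of their counts in haemoglobin genes, 2 labelled blood carried skin keratins, 1 labelled blood and 1 labelled monocyte had S100a8 and S100a9 at neutrophil levels, and 1 labelled blood had none of these marks. A library was classed as monocyte where it showed no other mark. In 1 monocyte library (PBS 3) Csf1r, a receptor gene of monocytes and macrophages, was at 25.4 CPM from totals, against a median of 390.0 CPM over the libraries of that class. Csf1r does not set this class apart, at 155 to 283 CPM in libraries classed as neutrophil and 253 to 707 CPM in those classed as skin. In the Ics libraries the 8 neutrophil markers summed to 49887 to 90206 CPM from totals, Krt5 and Krt14 were at 0 in all 12, and C1qa and C1qb of macrophages did not exceed 0.446 CPM.

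On GRCm38, 7 of the 10 genes lie on chromosome 6. Clec4a2 (123106428 to 123143999, plus strand), Clec4n (123229843 to 123247021, plus), Clec4d (123262111 to 123275265, plus) and Clec4e (123281789 to 123289870, minus) share a stretch of 183 kb. Clec12a (129342691 to 129365303, plus) and Clec7a (129461591 to 129472779, minus) share 130.1 kb, and Clec5a (40574894 to 40585821, minus) lies apart. Trem1 (48232768 to 48246924) and Trem3 (48247777 to 48258841) are neighbours on the plus strand of chromosome 17, followed on the same strand by Treml4, Treml2, Trem2 and Treml1, and Tyrobp (30413760 to 30417585, plus) is on chromosome 7. The positions are those of whole genes in GENCODE vM21, which annotates Clec7a as a polymorphic pseudogene and the other 9 as protein coding. Of the 31-base words in the transcripts of Clec4a2, 10.3% also occur in another gene, 4.96% in Clec4a4, so counts of Clec4a2 are uncertain where kallisto could split reads. In the other 9 genes the share was at most 1.96%.

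RefSeq promoter windows of GRCm38.p6, from 250 bases before to 50 bases after the transcript start, were found for 7 of the 10 genes; Trem3, Tyrobp and Clec4n have no entry. The windows of the neighbours Clec4d and Clec4e, which rose at 3 h in the Ics experiment, and of Trem1 and Clec12a, which fell, are shown so that they can be read beside the counts. Capitals mark GAGGAA, the core letters of PU.1 binding sites, or its reverse complement; PU.1 is a transcription factor of myeloid cells.
Clec4d, chr6:123261857-123262156, plus strand: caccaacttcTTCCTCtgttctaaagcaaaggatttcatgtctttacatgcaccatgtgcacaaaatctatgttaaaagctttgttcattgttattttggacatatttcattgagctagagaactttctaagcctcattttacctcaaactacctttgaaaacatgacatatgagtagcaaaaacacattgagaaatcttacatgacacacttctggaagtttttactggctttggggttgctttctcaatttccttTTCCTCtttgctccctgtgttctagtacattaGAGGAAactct
Clec4e, chr6:123289822-123290121, minus strand: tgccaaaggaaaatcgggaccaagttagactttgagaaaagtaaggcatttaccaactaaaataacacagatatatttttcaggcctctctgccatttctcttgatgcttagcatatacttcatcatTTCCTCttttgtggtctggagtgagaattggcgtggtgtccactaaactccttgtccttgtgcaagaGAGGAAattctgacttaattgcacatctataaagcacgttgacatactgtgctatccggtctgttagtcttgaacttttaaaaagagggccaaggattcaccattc
Trem1, chr17:48232489-48232788, plus strand: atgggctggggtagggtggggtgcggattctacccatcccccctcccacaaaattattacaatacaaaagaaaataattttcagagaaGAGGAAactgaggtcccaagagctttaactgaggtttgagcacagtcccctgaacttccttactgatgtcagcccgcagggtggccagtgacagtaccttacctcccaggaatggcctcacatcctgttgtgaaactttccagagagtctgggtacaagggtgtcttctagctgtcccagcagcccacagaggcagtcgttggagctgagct
Clec12a, chr6:129349994-129350293, plus strand: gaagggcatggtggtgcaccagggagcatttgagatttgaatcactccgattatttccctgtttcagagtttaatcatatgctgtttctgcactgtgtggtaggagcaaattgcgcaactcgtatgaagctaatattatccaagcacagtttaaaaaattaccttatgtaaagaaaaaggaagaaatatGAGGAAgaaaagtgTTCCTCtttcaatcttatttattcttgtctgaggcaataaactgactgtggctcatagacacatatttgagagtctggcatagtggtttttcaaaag

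The letters GAGGAA occurred 3 times in the Clec4d window, 2 times in each of the Clec4e, Clec5a and Clec12a windows, and 1 time in the Trem1 and Clec7a windows, reading both strands. Clec4a2 held 0. Of all 32851 promoter windows, 28.3% held at least 1. The C/EBP pattern TTNNGNAA was found 3 times in Clec4d and Clec12a, 2 times in Clec4e and Clec4a2, 1 time in Trem1 and Clec5a, and 0 times in Clec7a, against 40.7% of all windows with at least 1. The NF-kB pattern, GGG and CC with any 5 bases between them, was found in 50.8% of all windows and in none of the 7 genes, and the AP-1 pattern TGANTCA in 7.81% of all windows and 1 time each in Clec12a and Clec4a2. The patterns were counted independently of each other, so that matches may overlap. Some windows of genes that rose and some of genes that fell held both PU.1 and C/EBP letters, but those of Clec7a and Clec4a2 did not. These matches describe letters in a window, not binding.

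The Ics experiment asks how levels differed between the unstimulated state, 3 h and 6 h. The receptors did not move together. At 3 h, 6 of the 10 were higher than at 0 h (Clec4n, Clec4e, Clec4d, Clec5a, Clec7a and Tyrobp) and 3 were lower (Clec12a, Trem1 and Clec4a2), at an adjusted p under 0.05 in edgeR's quasi-likelihood test, with the Benjamini-Hochberg method. Of the 14996 genes in that fit, 26.9% were higher and 27.5% lower by the same rule. At 6 h, 4 of 10 were higher and 2 lower than at 0 h, beside 29.6% and 30.4% of all genes. From 3 h to 6 h, 1 rose and 5 fell, beside 20.5% and 20.3%. The median log2 change of the 10 genes was 0.33 at 3 h and 0.03 at 6 h against 0 h, where the median of all genes was -0.06 in both. With library totals in place of TMM, the median of all genes shifted to -0.30 at 3 h and -0.22 at 6 h, calls over all genes were 2693 higher and 6351 lower at 3 h in place of 4034 and 4129, and the receptors called were 4 higher and 4 lower at 3 h, 3 and 5 at 6 h, and 2 and 4 from 3 h to 6 h. Changes are therefore read relative to the other genes of the library.

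**Figure D1:**
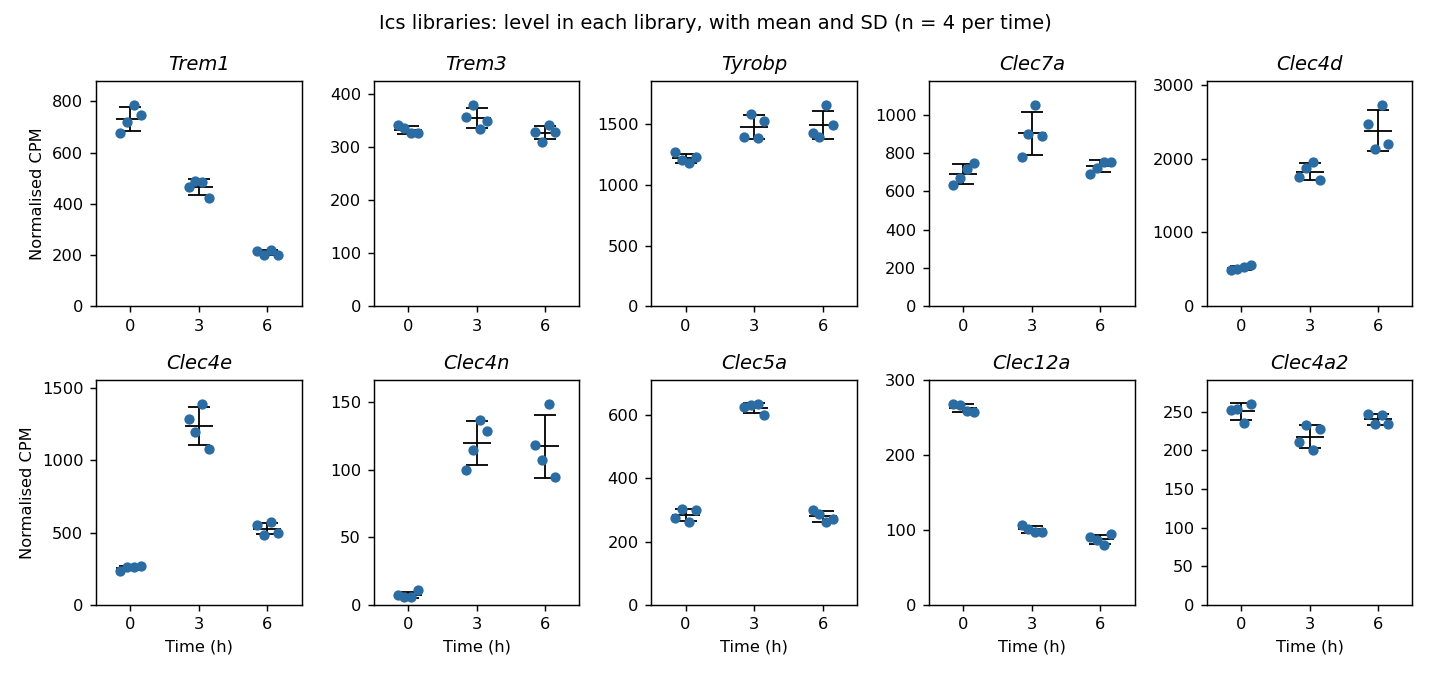
Normalised CPM (y axis, from 0) of each of the 10 genes in the 4 Ics libraries at 0, 3 and 6 h (x axis); points are libraries, the long bar is the mean and the whiskers are 1 SD. Trem1 stepped down at each time, Clec4d stepped up at each time, and Clec4e and Clec5a were highest at 3 h.

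Trem1 codes an activating receptor of neutrophils and monocytes that amplifies inflammatory responses through DAP12. Its level was 676, 719, 785 and 747 normalised CPM in the 4 libraries at 0 h, 467, 487, 487 and 423 at 3 h, and 215, 201, 218 and 199 at 6 h. The 3 groups did not overlap. Trem1 fell by 0.65 at 3 h on the log2 scale (SE 0.0607, n = 4 and 4, adjusted p = 4.07e-07 in edgeR) and by 1.81 at 6 h (SE 0.0625, adjusted p = 1.50e-11), a 3.52-fold lower level.

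Trem3 codes a DAP12-coupled receptor of mouse myeloid cells, next to Trem1 on the chromosome. Its level was 340.1, 334, 326 and 325 normalised CPM at 0 h, 355, 378, 333 and 349 at 3 h, and 327, 309.7, 339.9 and 327 at 6 h, and the groups overlapped at every pair of times. Neither change against 0 h passed the test in edgeR with TMM (log2 0.10 ± 0.0488 SE at 3 h, adjusted p = 0.114, and -0.02 ± 0.0488 at 6 h, adjusted p = 0.696), but the outcome depended on the scaling and the tool. Scaled by library totals in place of TMM, Trem3 was called lower at 3 h (-0.15, adjusted p = 0.012 in edgeR) and at 6 h (-0.19, adjusted p = 0.00325), and DESeq2 called it higher at 3 h (0.12, adjusted p = 0.0416). Leaving out the 3 h library m3 also gave a call of higher at 3 h (0.13). From 3 h to 6 h the change was -0.12 ± 0.0488 (adjusted p = 0.0663 in edgeR), and limma voom called it lower (-0.13, adjusted p = 0.0371). The ratio of Trem1 to Trem3 counts within a library, which library scaling does not touch, was 2.21 ± 0.184 (SD, n = 4) at 0 h, 1.32 ± 0.104 at 3 h and 0.639 ± 0.0220 at 6 h. The lowest ratio at 0 h, 1.99, was above the highest at 3 h, 1.46, and the lowest at 3 h, 1.21, was above the highest at 6 h, 0.658.

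Tyrobp codes DAP12, the adaptor that Trem1, Trem3 and Clec5a products signal through. Its level was 1269, 1202, 1182 and 1231 normalised CPM at 0 h, 1397, 1585, 1385 and 1531 at 3 h, and 1427, 1399, 1658 and 1493 at 6 h. All libraries at 3 h and 6 h were above all at 0 h, by log2 changes of 0.27 ± 0.0616 (SE) and 0.29 ± 0.0616 (adjusted p = 0.00173 and 9.17e-04 in edgeR, n = 4 and 4). With library totals in place of TMM neither change passed, at 0.02 and 0.13.

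Clec4e codes Mincle, a receptor for mycobacterial cord factor and for a protein released by dying cells, which signals through the Fc receptor gamma chain. Its level was 234, 259, 263 and 268 normalised CPM at 0 h, 1287, 1197, 1393 and 1077 at 3 h, and 553, 486, 572 and 501 at 6 h. The 6 h libraries lay between the other 2 groups with no overlap. Clec4e rose 4.84-fold at 3 h (log2 2.27 ± 0.0818 SE, n = 4 and 4, adjusted p = 2.35e-11 in edgeR) and was 2.34-fold lower at 6 h than at 3 h (adjusted p = 3.41e-08), still 2.06-fold above 0 h (adjusted p = 3.94e-08).

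Clec4d codes the partner chain of Mincle, also called Dectin-3. Its level was 489.6, 507, 530.3 and 553 normalised CPM at 0 h, 1752, 1869.9, 1959.5 and 1707 at 3 h, and 2478, 2132, 2729 and 2198 at 6 h. The groups did not overlap. Clec4d rose 3.50-fold at 3 h (log2 1.81 ± 0.0777 SE, adjusted p = 9.96e-11 in edgeR, n = 4 and 4) and 4.59-fold at 6 h (log2 2.20 ± 0.0787, adjusted p = 2.06e-11). From 3 h to 6 h it rose by a further log2 0.39 ± 0.0753 (adjusted p = 8.49e-04 in edgeR), over the same interval in which Clec4e fell. The ratio of Clec4d to Clec4e counts within a library was 2.03 ± 0.0571 (SD, n = 4) at 0 h, 1.48 ± 0.111 at 3 h and 4.50 ± 0.180 at 6 h, without overlap between times.

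Clec4n codes Dectin-2, a receptor for fungal mannans, and lies next to Clec4d. Its level was 7.23, 5.87, 5.66 and 10.8 normalised CPM at 0 h, 99.9, 115, 137 and 129 at 3 h, and 118, 107, 149 and 94.7 at 6 h. Every library at 3 h and 6 h was above every library at 0 h. Of the 10 genes it had the largest rise at 3 h, 16.3-fold (log2 4.02 ± 0.197 SE, n = 4 and 4, adjusted p = 4.19e-10 in edgeR), and the 6 h libraries were 15.9-fold above 0 h. The 3 h and 6 h groups overlapped and their difference did not pass (log2 -0.03 ± 0.165, adjusted p = 0.895 in edgeR).

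Clec5a codes MDL-1, another DAP12-coupled receptor. Its level was 273, 302, 261 and 298 normalised CPM at 0 h, 626, 630.3, 635 and 600.3 at 3 h, and 301, 286, 262 and 272 at 6 h. The 3 h libraries stood alone and the 0 h and 6 h groups overlapped. The rise at 3 h was 2.20-fold (log2 1.13 ± 0.0587 SE, adjusted p = 7.22e-10 in edgeR, n = 4 and 4) and the fall from 3 h to 6 h 2.22-fold (adjusted p = 4.39e-09), and 6 h did not differ from 0 h by the test (log2 -0.02 ± 0.0581, adjusted p = 0.794). With library totals in place of TMM the 6 h level was lower than at 0 h, at log2 -0.18, and passed.

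Clec7a codes Dectin-1, a receptor for fungal beta-glucans that carries its own activation motif. It had 631, 672, 717 and 749 normalised CPM at 0 h, 779, 897, 1050.2 and 889.9 at 3 h, and 690.1, 719, 755 and 756 at 6 h. The 3 h libraries were above the others. The rise at 3 h was 1.31-fold (log2 0.39 ± 0.0797 SE, adjusted p = 8.59e-04 in edgeR, n = 4 and 4), and with library totals in place of TMM it was log2 0.14 and did not pass. The level at 6 h did not differ from 0 h by the test (log2 0.08 ± 0.0796, adjusted p = 0.421 in edgeR).

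The inhibitory receptors were lower at 3 h. Clec12a, whose product MICL carries an inhibition motif, had 268, 267, 259 and 257 normalised CPM at 0 h, 107, 101, 97.4 and 97.3 at 3 h, and 89.9, 86.9, 79.2 and 94.0 at 6 h, with no overlap between times. It fell by 1.38 on the log2 scale at 3 h (SE 0.0567, n = 4 and 4, adjusted p = 6.40e-11 in edgeR) and by 1.59 at 6 h (SE 0.0570, adjusted p = 2.10e-11). The further step from 3 h to 6 h, log2 -0.20 ± 0.0563, passed (adjusted p = 0.00992 in edgeR) but not without the 3 h library m1 (-0.14), without the 6 h library m2 (-0.17) or with library totals in place of TMM (-0.12). The ratio of Clec4e to Clec12a counts within a library was 0.975 ± 0.0749 (SD, n = 4) at 0 h, 12.3 ± 1.40 at 3 h and 6.08 ± 0.840 at 6 h.

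Clec4a2, which codes the inhibitory receptor DCIR, had 253, 254, 235 and 260.3 normalised CPM at 0 h, 211, 233, 200.3 and 227 at 3 h, and 247, 234, 246 and 234 at 6 h. The 3 h group lay below the 0 h group by a small margin, and the 0 h and 6 h groups overlapped. The log2 change at 3 h was -0.20 ± 0.0553 (SE, adjusted p = 0.00654 in edgeR, n = 4 and 4) and at 6 h -0.06 ± 0.0552 (adjusted p = 0.370), the latter -0.22 and past the limit with library totals in place of TMM. From 3 h to 6 h the change was 0.14 ± 0.0553 (adjusted p = 0.0542 in edgeR), close to the limit. It passed with the title numbers as a replicate block (0.175, adjusted p = 0.0261 in edgeR), in DESeq2 (0.159, adjusted p = 0.027) and with library totals in place of TMM (0.23, adjusted p = 0.00414 in edgeR). It also passed without the 3 h library m2 (0.18), without the 3 h library m4 (0.19) and without the 6 h library m2 (0.18).

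**Figure D2:**
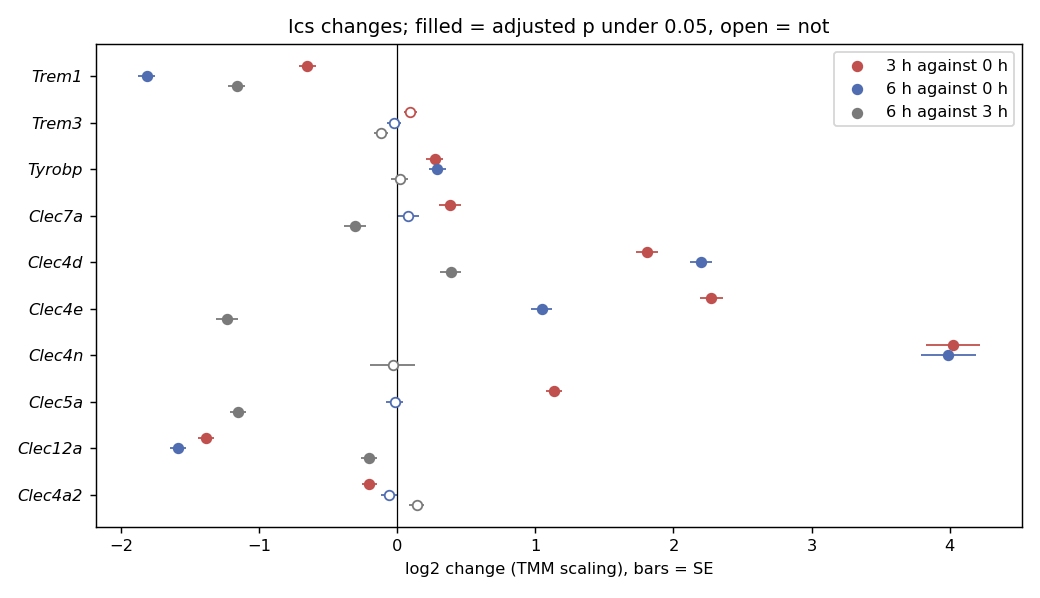
The log2 change (x axis) of each gene between Ics times, with SE bars (n = 4 libraries per time); filled points passed the adjusted p limit of 0.05 and open points did not. Clec4n, Clec4e and Clec4d lie farthest to the right at 3 h, and Trem1 and Clec12a farthest to the left at 6 h.

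Markers of cell types moved over the same times. The 8 neutrophil markers summed to a median of 83314 CPM from totals at 0 h (81721 to 90206), 67557 at 3 h (60845 to 73872) and 52666 at 6 h (49887 to 55504), with Ly6g at medians of 362, 162 and 171 CPM. These values are not on the scale of the receptor levels. TMM factors were higher in every 0 h library than in any later one, so part of these falls comes from the scaling. With library totals in place of TMM, the median log2 change of all genes was -0.30 rather than -0.06 at 3 h. At 6 h it was -0.22 rather than -0.06. The size of the marker shifts after TMM scaling was not tested. The 9 monocyte and macrophage markers summed to medians of 817, 937 and 934 CPM, but went in different directions. Csf1r rose, at medians of 152, 409 and 498 CPM, as did Adgre1, at 28.2, 144 and 182. Ly6c2 fell, at 614, 385 and 250 CPM. Ccr2, F13a1, Ms4a6c, C1qa and C1qb, with medians of at most 6.99 CPM, were also lower at 3 h and 6 h than at 0 h. Cx3cr1 was at 1.21, 1.73 and 1.06 CPM. The 5 dendritic cell markers summed to medians of 72.5, 346 and 372 CPM, nearly all of it the integrin gene Itgax, while Flt3, Zbtb46, Xcr1 and Siglech each stayed at or below 1.65 CPM. The part of these shifts in the receptor changes was not tested, and in bulk RNA fewer cells of a type and less RNA per cell cannot be told apart.

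Genes that act with these receptors were taken as a list of 40, of which 39 are in the table and 32 were tested in the Ics experiment. At 3 h, 18 of the 32 were higher and 10 lower, with a median log2 change of 0.43, beside 26.9% and 27.5% of all genes and a median of -0.06. At 6 h 17 were higher and 8 lower, with a median of 0.28, beside 29.6% and 30.4% of all genes. Of 14 adaptors and kinases, 10 were higher and 2 lower at 3 h, and all 3 phosphatase genes were higher. Bcl10, part of the signalling complex below Syk, rose by 1.06 ± 0.0555 (SE) at 3 h, while Card9, the adaptor that joins Syk to Bcl10, fell by 1.42 (SE 0.0635) at 3 h and was 0.68 ± 0.0630 higher at 6 h than at 3 h. The phosphatase genes Ptpn6 (0.83 ± 0.0496) and Ptpn11 (1.02 ± 0.0648) rose at 3 h. Each of these changes had an adjusted p under 0.05 in edgeR over all genes.

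Among 4 other Trem family genes tested, 1 was higher and 3 were lower at 3 h and at 6 h. Treml2, a neighbour of Trem3, fell by 0.78 at 3 h (SE 0.0461) and by 0.98 at 6 h (SE 0.0463), and Treml4 rose by 1.72 ± 0.0931 at 6 h (adjusted p = 1.23e-09 in edgeR). The 4 platelet markers summed to medians of 23.9 CPM from totals at 0 h, 6.36 at 3 h and 6.58 at 6 h, and their part in the Trem family changes, which include the platelet gene Treml1, was not tested. Among 11 other C-type lectin genes tested, 4 were higher and 5 lower at 3 h, and 5 higher and 4 lower at 6 h. Clec2d, whose product is a ligand of an inhibitory receptor of natural killer cells, rose by 2.66 ± 0.103 at 3 h and 3.03 ± 0.104 at 6 h, and Clec4a1, a gene of the same chromosome 6 family as Clec4a2, rose by 1.95 ± 0.141 at 6 h. Cd69, an early activation marker of lymphocytes that other leukocytes share, was lower at 6 h than at 3 h, with a log2 change of -1.84 ± 0.148. With library totals in place of TMM the 32 genes split 18 to 13 at 3 h and 16 to 10 at 6 h.

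**Figure D3:**
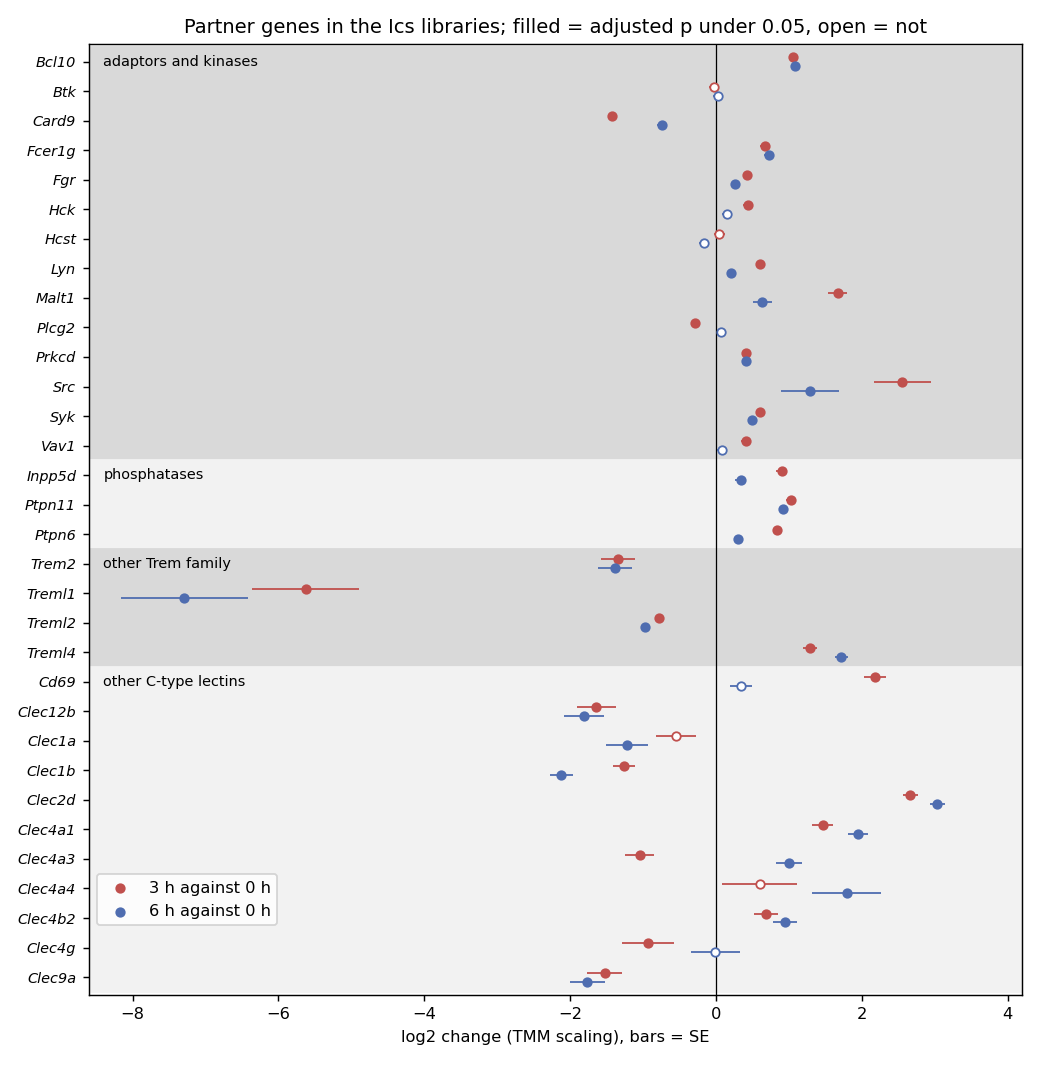
The log2 change (x axis) at 3 h and at 6 h against 0 h of the 32 tested partner genes, grouped by role, with SE bars (n = 4 libraries per time); filled points passed the adjusted p limit of 0.05 and open points did not. Card9 lies left of 0 among kinases and adaptors that mostly lie right of it, and the other C-type lectins spread to both sides.

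The tissue comparison asks where the 10 genes are transcribed, over the 25 libraries whose markers match their label (6 blood, 8 neutrophil, 7 monocyte and 4 skin), with IVIG and PBS libraries together. All but Clec4n and Clec7a were higher in neutrophils than in monocytes, and all but Clec4n were lower in blood than in neutrophils. By edgeR, 8 of 10 were higher and 0 lower in neutrophils than in monocytes (15.4% and 12% of all 18047 genes tested). Against skin, 9 were higher and 1 lower in neutrophils (25.1% and 35.2% of all genes), and 5 were higher and 2 lower in monocytes (21% and 32.1%). In blood 0 were higher and 9 lower than in neutrophils (21% and 21.7%). The median log2 change of the 10 genes was 1.40 for neutrophils against monocytes, where the median of all genes was 0, and 2.67 for neutrophils against skin, where it was -0.22.

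With every library taken as labelled, 1 of 10 was higher in neutrophils than in monocytes (Clec4d), 6 were higher and 0 lower in neutrophils than in skin, 3 were higher and 0 lower in monocytes than in skin, and 8 were lower in blood than in neutrophils. With library totals in place of TMM, 7 were higher in neutrophils than in monocytes, 7 higher and 1 lower in neutrophils than in skin, 4 higher and 2 lower in monocytes than in skin, and 10 lower in blood than in neutrophils. Over all genes that scaling gave 1766 higher and 835 lower for neutrophils against monocytes in place of 2772 and 2157, 2730 and 6648 in place of 4521 and 6351 against skin, 1864 and 6306 in place of 3784 and 5801 for monocytes against skin, and 688 and 14875 in place of 3793 and 3925 for blood against neutrophils, where it moved the median of all genes to -3.58. Haemoglobin genes took 89.2% to 98.3% of the counts of libraries with blood markers, and with them left out before scaling 9 receptors were again lower in blood than in neutrophils.

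**Figure D4:**
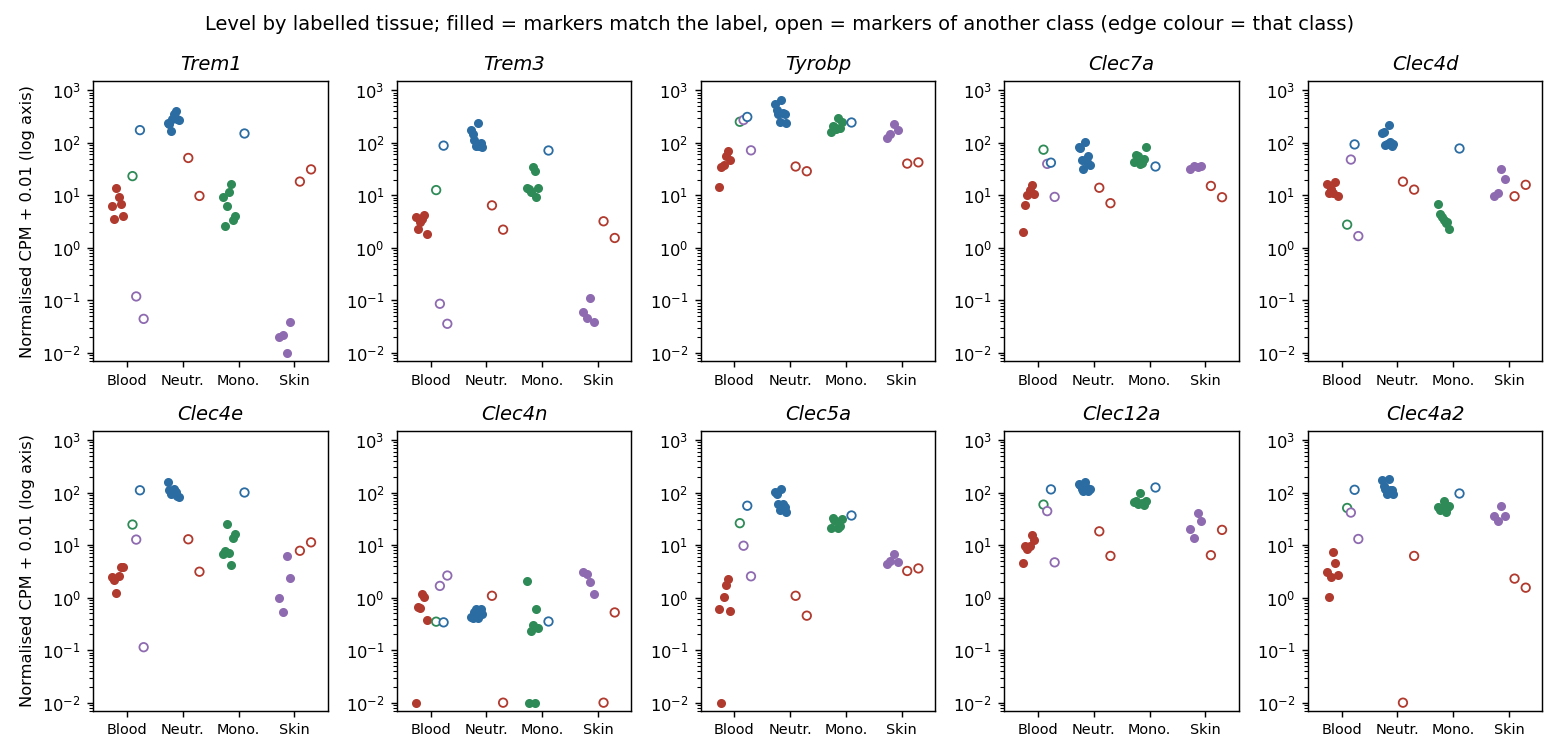
Normalised CPM plus 0.01 (y axis, log scale; a point at the bottom is a count of 0) of each gene in the 34 tissue libraries by label (x axis). Filled points are the 25 libraries whose markers match the label, and open points are the 9 others, edged in the colour of the class their markers give. For Trem1, the open blood and monocyte points edged as neutrophil lie at 174 and 155 normalised CPM, above every filled point of their label.

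Trem1 separated the tissues widely. In the 8 neutrophil libraries it ranged from 169 to 403 normalised CPM (median 279.8), in the 7 monocyte libraries from 2.59 to 16.2 (median 6.27), in the 6 blood libraries from 3.59 to 14.0 (median 6.56), and in skin it had 5 counts in all over 4 libraries (0, 1, 1 and 3). The neutrophil libraries did not overlap any other tissue, and monocytes and blood overlapped in normalised CPM. In CPM from totals they did not, at 5.33 to 22.8 in monocytes and 0.646 to 2.34 in blood. The blood libraries had 22 to 68 counts of Trem1. Trem1 was 39.5-fold higher in neutrophils than in monocytes (log2 5.30 ± 0.408 SE, n = 8 and 7 libraries, adjusted p = 5.89e-10 in edgeR). Title series is a number in the sample titles. Within series 2, with 1 neutrophil and 1 monocyte library, the difference of mean log2 levels was 4.42. In series 3 (6 and 3 libraries) the difference was 5.77, and in series 5 (1 and 3 libraries) 5.08.

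Trem3 had 83.1 to 235 normalised CPM in neutrophils (median 107), 9.10 to 35.0 in monocytes (median 13.6), 1.80 to 4.28 in blood (median 3.35), and 20 counts in all in the 4 skin libraries. None of the 4 tissues overlapped in normalised CPM. In CPM from totals blood and skin overlapped, at 0.294 to 0.899 and 0.0902 to 0.302. Trem3 was 7.58-fold higher in neutrophils than in monocytes (log2 2.92 ± 0.310 SE, n = 8 and 7, adjusted p = 1.10e-07 in edgeR). Against skin, both Trem genes passed in neutrophils and in monocytes, but with so few skin counts the fitted folds depend on the fit's prior count and are not given.

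Tyrobp, whose product also serves receptors of other myeloid cells and of natural killer cells, was found in every tissue. It had 236 to 644 normalised CPM in neutrophils (median 357), 163 to 302 in monocytes (median 203), 121 to 229 in skin (median 162) and 14.5 to 70.8 in blood (median 42.8). Neutrophils overlapped monocytes, and monocytes overlapped skin. Neutrophils were above monocytes by log2 0.95 ± 0.261 (SE, n = 8 and 7, adjusted p = 0.00766 in edgeR), which did not pass in the PBS libraries alone (0.85), in the IVIG libraries alone (1.03) or with library totals in place of TMM (1.04). The step from skin to monocytes did not pass in edgeR (0.40 ± 0.316, adjusted p = 0.296), and its sign was the opposite with library totals in place of TMM (-0.105).

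Clec4d had the second largest step from monocytes to neutrophils after Trem1. It ranged from 87.0 to 223 normalised CPM in neutrophils (median 100.3), 9.91 to 32.4 in skin (median 15.6), 9.89 to 17.7 in blood (median 12.2) and 2.30 to 6.88 in monocytes (median 3.43). In normalised CPM the monocyte libraries were below every library of the other 3 tissues. The order to blood depended on the scaling. In CPM from totals Clec4d had 1.48 to 3.23 in blood and 1.44 to 12.6 in monocytes. Clec4d was 34.7-fold higher in neutrophils than in monocytes (log2 5.11 ± 0.315 SE, n = 8 and 7, adjusted p = 1.48e-11 in edgeR) and 4.63-fold lower in monocytes than in skin (log2 -2.21 ± 0.307, n = 7 and 4, adjusted p = 1.28e-06).

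Clec4e, the partner of Clec4d, had 83.3 to 158 normalised CPM in neutrophils (median 101), 4.25 to 24.9 in monocytes (median 7.63), 1.23 to 3.86 in blood (median 2.51) and 0.529 to 6.19 in skin (median 1.66). Neutrophils stood apart, and monocytes and skin overlapped. It was 9.57-fold higher in neutrophils than in monocytes (log2 3.26 ± 0.424 SE, n = 8 and 7, adjusted p = 2.17e-06 in edgeR). Monocytes were above skin by log2 2.27 ± 0.515 (adjusted p = 5.74e-04, n = 7 and 4), the opposite order to Clec4d, and this step did not pass in the PBS libraries alone (1.35).

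Clec4n was scarce in all 4 tissues. Its level was 1.15 to 3.04 normalised CPM in skin (median 2.41), 0 to 1.16 in blood (median 0.629), 0.391 to 0.602 in neutrophils (median 0.457) and 0 to 2.08 in monocytes (median 0.252). The count was 0 in 1 blood and 2 monocyte libraries. There 3 counts, taken as an approximate upper limit for a count of 0, would be 0.0917, 0.158 and 0.117 CPM from totals. Neutrophils and monocytes did not differ by the test (log2 0.04 ± 0.679, n = 8 and 7, adjusted p = 0.997 in edgeR). It was 4.26-fold lower in neutrophils than in skin (log2 -2.09 ± 0.762 SE, n = 8 and 4, adjusted p = 0.02), and 4.38-fold lower in monocytes (log2 -2.13 ± 0.795, adjusted p = 0.0263). Neither held without the skin library IVIG 2 (-1.97 and -2.01), and the monocyte step did not hold without the skin library IVIG 1 (-2). Within title series 5, which holds all 4 skin libraries, the differences were -1.52 for 1 neutrophil library and -1.39 for 3 monocyte libraries, and with title series as a covariate neither passed (-1.18 and -1.76).

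Clec5a had 42.1 to 116 normalised CPM in neutrophils (median 59.6), 21.0 to 32.9 in monocytes (median 29.2), 4.41 to 6.70 in skin (median 4.94) and 0 to 2.29 in blood (median 0.817). None of the 4 tissues overlapped in normalised CPM. In CPM from totals monocytes and skin overlapped, at 10.4 to 109 and 14.3 to 20.0. Clec5a was 2.77-fold higher in neutrophils than in monocytes (log2 1.47 ± 0.308 SE, n = 8 and 7, adjusted p = 7.07e-04 in edgeR) and 5.33-fold higher in monocytes than in skin (log2 2.41 ± 0.405, n = 7 and 4, adjusted p = 1.79e-05).

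Clec7a did not separate neutrophils from monocytes. Its level was 31.7 to 106 normalised CPM in neutrophils (median 51.2), 39.9 to 84.3 in monocytes (median 49.4), 32.4 to 36.3 in skin (median 35.0) and 2.02 to 15.9 in blood (median 10.4). Neutrophils overlapped monocytes and skin, and neutrophils against monocytes did not pass (log2 0.23 ± 0.288 SE, n = 8 and 7, adjusted p = 0.598 in edgeR). Neutrophils were above skin by 0.92 ± 0.354 (n = 8 and 4, adjusted p = 0.0273), but not past the limit without neutrophil PBS 2 (0.76) or without any 1 of the 4 skin libraries, where the change was 0.76, 0.93, 0.91 and 0.81, or with library totals in place of TMM (0.483).

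The inhibitory receptor genes Clec12a and Clec4a2 had their medians in the order neutrophil, monocyte, skin and blood, as did Tyrobp, Clec5a and Clec7a. Clec12a had 106 to 162 normalised CPM in neutrophils (median 119), 57.3 to 95.9 in monocytes (median 66.2), 13.4 to 40.4 in skin (median 24.3) and 4.64 to 15.3 in blood (median 9.50). Clec4a2 had 91.8 to 177 in neutrophils (median 115), 42.2 to 68.9 in monocytes (median 50.9), 28.9 to 55.8 in skin (median 36.2) and 1.03 to 7.36 in blood (median 2.86). Neutrophils overlapped no other tissue for either gene. Neutrophils were above monocytes by log2 0.96 ± 0.215 for Clec12a and 1.33 ± 0.249 for Clec4a2 (SE, n = 8 and 7, adjusted p = 0.00143 and 2.20e-04 in edgeR). Monocytes were above skin for Clec12a (1.48 ± 0.273, adjusted p = 5.89e-05) and did not differ from it by the test for Clec4a2 (0.48 ± 0.298, adjusted p = 0.184).

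In blood, the largest step down from neutrophils was that of Clec5a, at log2 -6.18 ± 0.440 (SE, n = 6 and 8, adjusted p = 9.85e-12 in edgeR), followed by Trem3 at -5.44 ± 0.387, Clec4e at -5.40 ± 0.523 and Trem1 at -5.36 ± 0.443. The 6 blood libraries had 0 to 16 counts of Clec5a, 10 to 30 of Trem3, 6 to 27 of Clec4e and 22 to 68 of Trem1. The size and order of these steps are therefore uncertain. Clec7a had the smallest of the 9 that passed, at -2.72 ± 0.338. Within title series 3, which holds all 6 blood libraries and 6 of the neutrophil libraries, the differences of mean log2 levels were -5.44 for Clec5a, -4.84 for Trem3, -4.99 for Clec4e and -5.23 for Trem1. The 8 neutrophil markers summed to 13.0 to 56.5 CPM from totals in blood, 74392 to 133538 in neutrophils, 1627 to 16000 in monocytes and 19.1 to 40.1 in skin, and the 9 monocyte and macrophage markers to 22.8 to 69.4, 1633 to 2756, 785 to 6854 and 1821 to 4385. S100a8 and S100a9 are in the neutrophil list and also set the classes. The gaps between its sums were therefore partly fixed by the choice of libraries. Haemoglobin takes most counts in blood, which lowers the blood sums in CPM from totals. The part of cell makeup in these receptor differences was not tested.

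Of 38 partner genes tested, 12 were higher and 9 lower in neutrophils than in monocytes, where 15.4% and 12% of all genes were. Among the 14 adaptors and kinases 6 were higher and 1 lower, and among the 17 other C-type lectins 3 and 6, and the roles were not tested against each other. Hcst, which codes the adaptor DAP10, was 2.39 ± 0.347 higher (adjusted p = 9.64e-06 in edgeR), Fcer1g 1.07 ± 0.199 and the kinase gene Fgr 1.37 ± 0.255, and Treml1, a receptor gene of platelets, was at -3.48 ± 0.487. The 4 platelet markers summed to 37.4 to 336 CPM from totals in the monocyte libraries and 4.81 to 29.1 in the neutrophil libraries. With library totals in place of TMM the 38 genes split 7 to 5. Against skin, 13 of the 14 adaptors and kinases were higher and 1 lower in neutrophils, with Card9 at 6.06 ± 0.527, while 10 of 17 other C-type lectins were lower and 3 higher, with the macrophage mannose receptor gene Mrc1 at -6.24 ± 0.543. In blood against neutrophils, 10 of 38 were higher and 13 lower, and 4 and 32 with library totals; Treml1 (9.73 ± 0.615) and Clec1b (5.89 ± 0.480), a receptor gene of platelets, were higher, in libraries where the platelet markers summed to 435 to 1031 CPM.

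The effect of treatment was asked within each tissue, with IVIG against PBS over every library as labelled. No receptor passed in any tissue by edgeR, DESeq2 or limma voom. In edgeR, 0% of all genes passed in blood, neutrophils, monocytes or skin, where 81 of 11339, 73 of 14033, 286 of 14415 and 157 of 16171 genes had an unadjusted p under 0.05. Among the receptors 1 did, Clec4d in skin (log2 -1.22 ± 0.450 SE, n = 3 and 3, adjusted p = 1.00). The number tested was 9 of 10 in blood, where Clec4n was too low, 10 in neutrophils, 10 in monocytes and 8 in skin, where Trem1 and Trem3 were too low. The difference of the IVIG effect between tissues, tested for each of the 6 pairs of tissues over all 34 libraries, passed for 0 of 10 receptors and 0% of all genes, with 0 receptors at an unadjusted p under 0.05. The libraries as labelled include the 9 whose markers go against their label, so groups mix tissues. These fits therefore cannot show that IVIG had no effect.

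**Figure D5:**
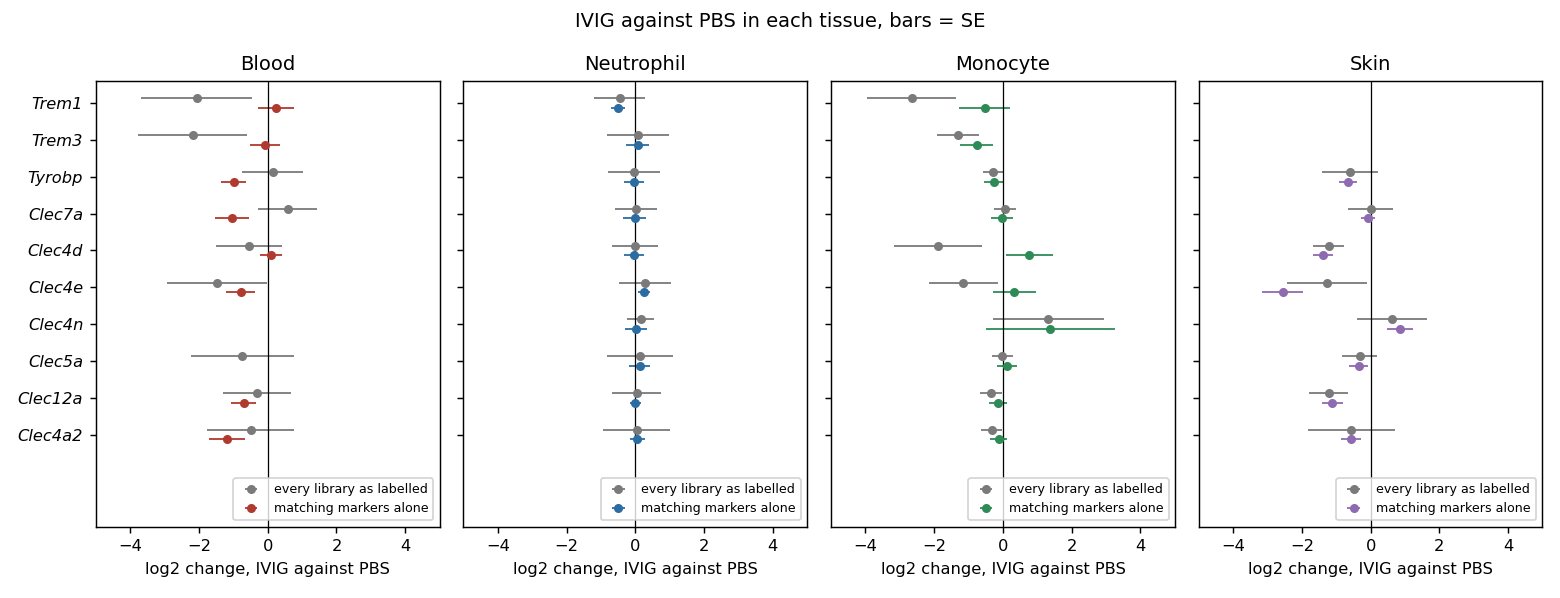
The log2 change (x axis) with IVIG against PBS of each gene in the 4 tissues, with SE bars; grey points use every library as labelled and coloured points only the libraries whose markers match the label. The grey and coloured points of Trem1 and Trem3 in blood, and of Trem1 and Clec4d in monocytes, are far apart. In neutrophils the grey and coloured points of each gene lie close together, with narrower bars in colour.

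The libraries that go against their label moved several of these estimates. In blood, Trem1 was at -2.07 ± 1.62 (SE) with every library (n = 5 and 5) and at 0.24 ± 0.524 over the 3 and 3 libraries with blood markers, and Trem3 at -2.18 ± 1.58 and -0.08 ± 0.437. Tyrobp was at 0.15 ± 0.891 with every library and -0.99 ± 0.371 in the matching ones, with Clec7a at 0.59 ± 0.856 and -1.04 ± 0.488. In the matching blood libraries Tyrobp had 14.5, 34.2 and 38.0 normalised CPM with IVIG and 55.7, 70.8 and 47.7 with PBS, and Clec7a 2.02, 6.41 and 10.3 with IVIG and 12.4, 15.9 and 10.6 with PBS. Clec4e had 2.42, 2.18 and 1.23 with IVIG and 2.60, 3.86 and 3.78 with PBS. The IVIG libraries lay below all PBS libraries for 3 of the 8 receptors with at least 10 counts in 3 of the 6 libraries (Tyrobp, Clec7a and Clec4e) and above them for 0, beside 6.19% and 5.92% of 10595 genes, and none of these changes passed the adjusted limit. In CPM from totals Tyrobp overlapped, at 2.20, 8.38 and 4.28 with IVIG and 13.9, 12.9 and 7.78 with PBS. Clec4e rested on 12, 17 and 6 counts with IVIG and 18, 27 and 21 with PBS. The 9 monocyte and macrophage markers summed to 22.8, 60.3 and 23.7 CPM from totals with IVIG and 69.4, 50.3 and 39.2 with PBS, and their part in these values was not tested.

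In neutrophils the estimates of the 9 receptors other than Trem1 lay between -0.03 and 0.27 with every library, with SE of 0.392 to 0.973. Over the 4 and 4 libraries with neutrophil markers the SE were 0.152 to 0.346 and the estimates -0.03 to 0.25. Trem1 was at -0.51 ± 0.204 there, with 241, 233, 169 and 288 normalised CPM with IVIG and 358, 403, 284 and 275 with PBS; the groups overlapped and the change did not pass. In monocytes Trem1 was at -2.66 ± 1.29 with every library (n = 3 and 5) and -0.53 ± 0.732 over the 3 and 4 classed as monocyte, having no other mark. Clec4d was at -1.88 ± 1.28 and 0.77 ± 0.679, and Clec4e at -1.15 ± 0.999 and 0.33 ± 0.633.

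In skin, 2 IVIG and 2 PBS libraries carried skin markers. Clec4e had 0.963 and 0.529 normalised CPM with IVIG and 6.19 and 2.36 with PBS, Clec4d 9.91 and 11.1 against 32.4 and 20.1, and Clec12a 19.8 and 13.4 against 40.4 and 28.9. Tyrobp had 121 and 147 against 229 and 177, and Clec4a2 36.0 and 28.9 against 55.8 and 36.4. The IVIG libraries lay below both PBS libraries for these 5 of the 8 receptors with at least 10 counts in 2 of the 4 libraries and above them for 1, Clec4n, beside 14.2% and 22.9% of 17059 genes. In CPM from totals Clec4a2 overlapped, at 118.5 and 82.3 with IVIG and 166.7 and 110.6 with PBS. Clec5a, which overlapped after TMM scaling, did not in CPM from totals, at 14.55 and 14.35 with IVIG and 20.01 and 14.70 with PBS. The log2 changes over these 4 libraries were -2.56 ± 0.601 for Clec4e, -1.38 ± 0.283 for Clec4d, -1.11 ± 0.303 for Clec12a, -0.65 ± 0.271 for Tyrobp and -0.56 ± 0.289 for Clec4a2, and none passed the adjusted limit. Clec4n had 3.04 and 2.84 normalised CPM with IVIG and 1.99 and 1.15 with PBS (0.86 ± 0.385), and did not pass either. Marker sums were apart in the same libraries: the 9 monocyte and macrophage markers summed to 3207 and 1821 CPM from totals with IVIG and 3876 and 4385 with PBS, and the 5 skin markers to 16911 and 26171 with IVIG and 10959 and 9471 with PBS. Their part in the receptor values was not tested.

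The genes with the most similar pattern to each receptor were ranked by Pearson's r of log2 CPM, as a description, for which TMM factors were computed over all 46 libraries together rather than for each set apart. Over all 46 libraries, whose points share tissues and include the difference between the Ics experiment and the rest, Trem1 was most like Plaur (r = 0.958), the urokinase receptor gene, and Mirt1 (0.946), with Trem3 next (0.943), and Trem3 was most like S100a9 (0.986) and S100a8 (0.985). Clec4e was closest to A530064D06Rik (0.964) and Lilrb4a (0.956), Clec4d to Acod1 (0.957), which codes the enzyme that makes itaconate, Clec7a to Tlr13 (0.969) and Clec12a to Gpr65 (0.926). Over the 12 Ics libraries alone, which share the 3 times, Trem1 was most like Selenon (0.996) and the decoy receptor gene Il1r2 (0.995), Clec4d like Arg2 (0.998), which codes a mitochondrial arginase, Clec4e like Stx6 (0.996), Clec4n like Marcks (0.998), Clec5a like Apbb3 (0.987) and Clec12a like Rnpep (0.996).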

How the data were processed

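The authors' deposited table holds estimated counts (length-scaled TPM), made with kallisto 0.46.1 on GRCm38 per the submitters' processing notes; RNA came from neutrophils and monocytes derived from bone marrow or from whole blood per the labels' protocols, which do not describe skin. The 10 genes and all lists were chosen with earlier results of these data known. Estimated counts were rounded to whole numbers and tested with edgeR 4.0.16 in R 4.3.3 (quasi-likelihood, TMM, genes passing filterByExpr at a minimum count of 10, Benjamini-Hochberg over all genes, limit 0.05); the SE is the log2 change divided by the root of F. DESeq2 1.42.0, limma 3.58.1 voom, other scalings, filters and library sets were alternatives. The script was tested on simulated data. Libraries were classed by markers: haemoglobin over 10% of counts (blood), Krt5 plus Krt14 over 100 CPM (skin), S100a8 plus S100a9 over 10000 CPM (neutrophil), otherwise monocyte. Conditions follow the sample names as deposited, because another treatment field differs from them in 34 of 46 libraries; directions with IVIG hold only for those names. Of 77 pairs of libraries within groups, 0 were identical. All 10 genes are described, and partner genes named are the 6 with the lowest p per comparison.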

Additional observations from a re-analysis of the deposited data

Results flagged for a closer look

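Among 120 pairs of 1 of the 10 genes and a set of 4 to 8 libraries, 16 had 1 library far from the others by Dixon's test. For normally spread values chance alone gives about 1 in 20, and the CPM tested was not on a log scale. The genes share libraries, so these pairs are not independent. Of the 16, 9 were the blood library PBS 1, which carries neutrophil markers. Its levels were 174 normalised CPM for Trem1 (others at most 9.38), 88.4 for Trem3 (4.28), 311 for Tyrobp (71.9) and 41.9 for Clec7a (15.9). It had 93.2 for Clec4d (17.7), 110.4 for Clec4e (3.86), 56.0 for Clec5a (2.53), 115 for Clec12a (15.3) and 113 for Clec4a2 (13.0).

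The monocyte library PBS 1, which also carries neutrophil markers, accounted for 3, at 155 normalised CPM for Trem1 (others at most 16.2), 80.3 for Clec4d (3.43) and 103 for Clec4e (16.5). The other 4 were libraries whose markers match their label. Monocyte PBS 5 had 84.3 normalised CPM for Clec7a, where the others of its group had at most 49.4. Neutrophil IVIG 1 had 158 for Clec4e (others at most 117), monocyte IVIG 1 had 2.08 for Clec4n (0.606), and monocyte PBS 2 had 95.9 for Clec12a (69.1).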

How the results depend on the processing

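In the Ics experiment, library totals in place of TMM gave 5 receptors lower at 6 h than at 0 h and turned Trem3 at 3 h to -0.152. From 3 h to 6 h, 2 receptors were higher under DESeq2, library totals, an adjusted p under 0.1, or the title numbers as a replicate block, and 1 to 2 when each library was left out in turn. Same-numbered Ics libraries had correlations of 0.0684 to 0.313 in 12 pairs, 10 of them over 0.1, and 11 of 12 correlated best with their own number. The titles repeat m1 to m4 at each time, but no label says what a number marks. A link between same-numbered libraries is thus a hint from titles and data, not a stated design. The replicate block gave 6 higher and 3 lower at 3 h, 4 and 2 at 6 h, and 2 and 5 from 3 h to 6 h, where the added call was Clec4a2 (0.175).

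With every library as labelled, neutrophils against monocytes gave 1 receptor higher, neutrophils against skin 0 lower, and monocytes against skin 3 higher and 0 lower. Neutrophils against skin also gave 0 lower with title series as a covariate, in the PBS libraries alone and in the IVIG libraries alone, and 0 to 1 when each library was left out in turn. Monocytes against skin gave 1 lower with title series as a covariate, in the PBS libraries alone and in the IVIG libraries alone, and 1 to 2 when each library was left out. Clec4n in blood against neutrophils turned to -3.27 with library totals. The cause of these changes was not tested. Title series could not be a covariate for IVIG in skin, where the matching libraries share 1 series. Counts of Clec4n in all tissues, of Trem1 and Trem3 in skin, and of Clec5a in blood limit what can be said of them there.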
